A study of Homo sapiens with 6 samples.

Results

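TBL1XR1 is a WD40 repeat protein of the NCoR corepressor complex. Its transcript was at 38.8% of the control level in HuH7 hepatoma cells given a gapmer against the long noncoding RNA EGOT. TBL1XR1 is described here with the other genes of that complex. The members were named by gene symbol, TBL1XR1 having been chosen on its difference between these same arrays and the others as its partners in the complex. Of 5 genes, TBL1XR1, TBL1X, HDAC3, GPS2 and NCOR1, the first 4 carried a named probe set, 1 each, out of 14812 named genes in all. NCOR1, the scaffold of the complex, was not analysed here.

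The NCoR complex silences genes by removing acetyl groups from histones. The scaffold protein NCOR1 binds nuclear receptors that lack an activating ligand and holds the deacetylase HDAC3, which it also activates. TBL1X and TBL1XR1 are close paralogues that bind histones and the scaffold and that help exchange corepressors for coactivators when ligand arrives, and GPS2 is a small bridging subunit that also restrains inflammatory signalling. In liver, known from mice, HDAC3 and the scaffold restrain genes of lipid synthesis and storage.

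The cells were HuH7, a human liver cancer line, transfected with a gapmer against EGOT, and their counterparts received a control one. Gapmers are chimeric oligonucleotides that make RNase H cut a matching RNA. The gapmers were given at 50 pmol to wells seeded with 100000 cells, and every well, control wells included, also received carrier plasmid, 0.3 µg of a plasmid for the kinase PKR, and the double-stranded RNA poly I:C. RNA was collected at 36 hours and read on 3 EGOT gapmer arrays and 3 control gapmer arrays. There was 1 gapmer per group and no arm without PKR and poly I:C, and the labels do not say whether replicates were separate cultures, so p-values reflect variation among these 6 arrays alone, possibly technical in origin. Sites for the EGOT gapmer in TBL1XR1 or other RNAs were not looked for. With 1 gapmer, loss of EGOT and other effects of that gapmer cannot be told apart.

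Values are RMA log2 expression values as the authors deposited them. EGOT, the targeted RNA, read 4.91, 4.90 and 4.69 with the EGOT gapmer, against 6.29, 6.79 and 6.71 with the control gapmer (log2 difference -1.76, limma adjusted p = 0.00760). The hepatocyte list held 13 measured genes whose mean log2 level was 11.79 to 11.84 with the EGOT gapmer and 11.71 to 11.77 with the control gapmer, and albumin (ALB) and alpha-fetoprotein (AFP) lay near the top of the scale at 13.25 to 13.71 on every array. Within that list TM4SF4 and APOA1 rose (limma adjusted p = 0.0387 and 0.0406) and 0 fell, though both missed the threshold in each of the 6 fits that left out 1 array. The 3 measured endothelial and fibroblast genes, VWF, KDR and DCN, were dim, with a mean of 3.49 to 3.86 with the EGOT gapmer and 3.43 to 3.60 with the control gapmer. The 5 measured leukocyte genes averaged 6.92 to 7.12 with the EGOT gapmer and 6.48 to 6.64 with the control gapmer. CD68 and LYZ of that list rose, by 1.06 and 0.57 on the log2 scale. CD68 missed the threshold without control gapmer replicate 2 (limma adjusted p = 0.0562), and LYZ without control gapmer replicate 1, 2 or 3 (limma adjusted p = 0.0607, 0.0804 and 0.0751). The mean of its 2 probe sets gave LYZ a difference of 1.13. The marker lists were not used to adjust any value, and the part of other cells in the results was not tested. EGOT gapmer replicate 2 had the highest array median, 5.23, against at most 5.15 for the rest. In a fit across all genes (limma, Benjamini-Hochberg adjusted p under 0.05) 8.41% of genes passed, 5.2% higher and 3.21% lower with the EGOT gapmer. Quantile and cyclic loess normalization turned the split of 770 higher and 475 lower calls into 679 and 674, and 644 and 677. Groups did not overlap in 31.7% of genes.

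TBL1XR1 was far lower with the EGOT gapmer. Its log2 level was 7.83, 8.10 and 7.89 in EGOT gapmer replicates 1, 2 and 3, against 9.37, 9.27 and 9.28 in control gapmer replicates 1, 2 and 3. All 3 EGOT gapmer arrays lay below all 3 control gapmer arrays, and the gap between the groups was larger than the spread within either. The mean was 7.94 ± 0.139 with the EGOT gapmer and 9.30 ± 0.0594 with the control gapmer (SD, n = 3 each), a log2 difference of -1.37 with a standard error of 0.0900, which leaves 38.8% of the control level. In bulk RNA, fewer cells that express a gene and less RNA per cell cannot be told apart. This difference chose the gene, so it stands as a description and carries no test. Leaving out any 1 array moved it between -1.44 and -1.31.

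TBL1X, the paralogue that shares the role of TBL1XR1, differed far less between the groups. It read 8.01, 7.92 and 7.96 with the EGOT gapmer, against 8.14, 8.00 and 8.30 with the control gapmer. The groups overlapped, since EGOT gapmer replicate 1 lay just above control gapmer replicate 2. The log2 difference of -0.19 (standard error 0.0914) had a 95% interval of -0.40 to 0.03 (limma adjusted p = 0.264). Without control gapmer replicate 3 it was -0.11 (limma adjusted p = 0.568). The differences of the paralogues were not tested against each other, because TBL1XR1 was chosen for its own.

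HDAC3, the catalytic subunit, leaned the other way. It read 7.80, 7.97 and 7.90 with the EGOT gapmer, against 7.55, 7.66 and 7.46 with the control gapmer. The groups did not overlap. The mean was 7.89 ± 0.0867 with the EGOT gapmer and 7.56 ± 0.0972 with the control gapmer (SD, n = 3 each). The log2 difference of 0.33, with a standard error of 0.0839 and a 95% interval of 0.13 to 0.53, just missed the threshold (limma adjusted p = 0.0562). It passed in 2 of 15 alternatives, which were a variance prior that follows the mean level (limma adjusted p = 0.00814) and a test of the brighter genes alone (limma adjusted p = 0.00836).

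GPS2 gave a smaller difference of the same sign. It read 8.11, 8.34 and 8.32 with the EGOT gapmer, against 8.09, 8.06 and 7.97 with the control gapmer. The groups did not overlap, but EGOT gapmer replicate 1 stood only just above control gapmer replicate 1. The log2 difference of 0.22 (standard error 0.0879) had a 95% interval of 0.01 to 0.42 and missed the threshold after adjustment (limma adjusted p = 0.181). Among the 3 partners, then, 0 passed after adjustment, against 8.41% of all genes (5.2% higher, 3.21% lower). A test of the 7406 genes above the median level passed 2547, HDAC3 among them but not TBL1X or GPS2. Of the 3, 2 had an unadjusted limma p under 0.05, as did 3708 of all 14812 genes, and 2 had groups that did not overlap, as 31.7% of all genes did. After cyclic loess normalization, and after either span correction, the groups of GPS2 overlapped.

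**Figure D1:**
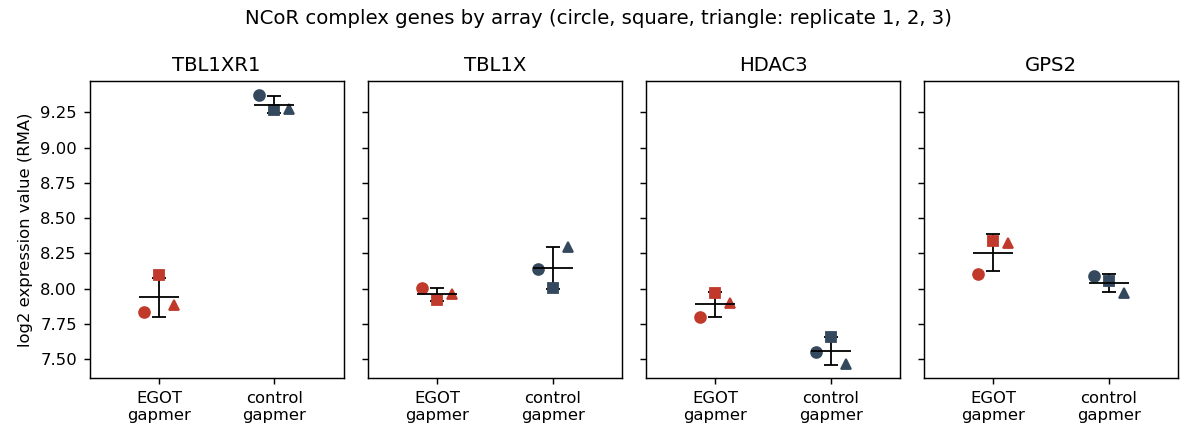
Log2 expression value (RMA, y axis) of the 4 measured genes of the NCoR complex on each array, EGOT gapmer left and control gapmer right, with symbols for replicates and bars for the mean ± SD of 3 arrays. TBL1XR1 stands at 7.83 to 8.10 with the EGOT gapmer and at 9.27 to 9.37 with the control gapmer, while the other 3 genes stay between 7.46 and 8.34 throughout.

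Differences on these arrays moved with gene length, and TBL1X and GPS2 stood close to the median of brighter coding genes of their length. Genomic spans in the RefSeq table are 182 kb for TBL1XR1, 256 kb for TBL1X, 16.0 kb for HDAC3 and 2.70 kb for GPS2. Across 5955 protein-coding genes above their median level, the log2 difference dropped by 0.22 for each 10-fold increase in span, as a linear fit across genes, which are not independent replicates. Over all 14812 genes the slope was smaller, -0.04. In the longest of 10 equal groups of these genes, 149 kb and above, the median difference was -0.21, and in the shortest group, up to 5.66 kb, it was 0.18. TBL1X stood 0.028 above the median of its span group and GPS2 0.032 above that of its own, both between the lower and upper quartiles of those groups.

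HDAC3 stood 0.20 above the median of its span group, where 83 of 595 genes had a larger difference. TBL1XR1 stood -1.15 from the median of the longest group, a description only, since it was chosen for this difference. With a linear trend fitted over all genes removed, the log2 differences were -1.32 for TBL1XR1, -0.13 for TBL1X, 0.33 for HDAC3 and 0.18 for GPS2, all of the same sign as before. With the steeper trend of the brighter coding genes removed from protein-coding genes, an alternative chosen after seeing the data, the log2 differences became -1.20 for TBL1XR1, 0.015 for TBL1X, 0.27 for HDAC3 and -0.0085 for GPS2. TBL1X and GPS2 changed sign under this second correction alone of the 15 alternatives, and there neither they nor HDAC3 passed (limma adjusted p = 0.937, 0.963 and 0.102). What makes long and short genes differ was not tested.

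**Figure D2:**
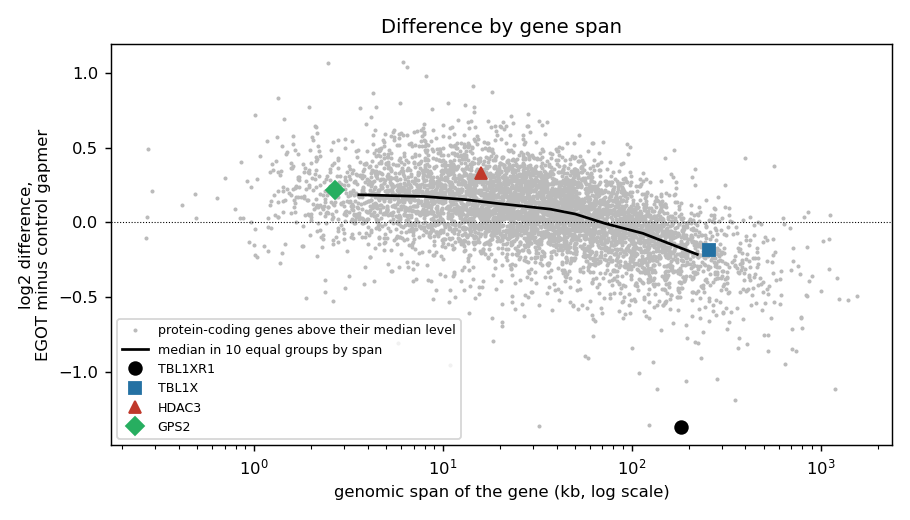
Log2 difference, EGOT gapmer minus control gapmer (y axis), against genomic span in kb (x axis, log scale) for protein-coding genes above their median level, with a line through the medians of 10 equal groups by span. TBL1X and GPS2 lie close to the line, HDAC3 lies above it and TBL1XR1, at -1.37, lies far below it.

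**Figure D3:**
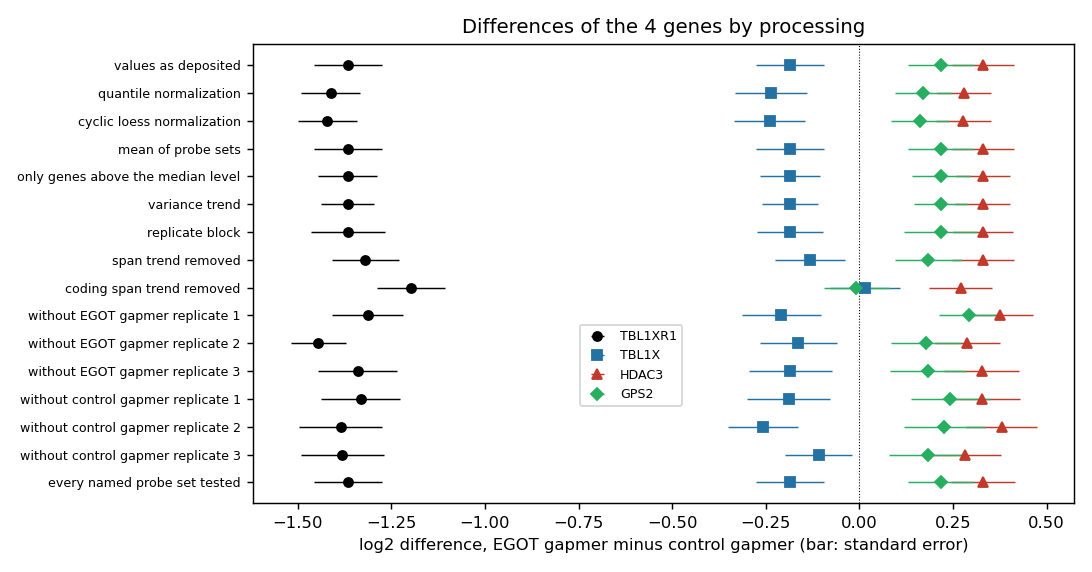
Log2 difference, EGOT gapmer minus control gapmer (x axis, bars are standard errors), of TBL1XR1, TBL1X, HDAC3 and GPS2 in the values as deposited and in 15 alternatives (rows). TBL1XR1 keeps between -1.44 and -1.20, and only removal of the span trend of coding genes brings TBL1X and GPS2 to about 0.

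The genes whose profile over the 6 arrays was most like that of TBL1XR1 were a mixture. Likeness was the Euclidean distance between log2 values, each gene centred on its own mean, and the median distance of the other 14811 genes was 1.75. The nearest were DDX60L, an interferon-induced helicase-like gene, at 0.314, COG6, a part of the Golgi tethering complex, at 0.341, and the zinc finger gene HIVEP2, at 0.389. RSAD2, which encodes the antiviral enzyme viperin, followed at 0.447 and FRYL at 0.477. Since TBL1XR1 was chosen for its difference, these genes share it by construction.

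DDX60L tracked it most closely, at 7.53, 7.75 and 7.53 with the EGOT gapmer, against 8.90, 9.17 and 8.80 with the control gapmer. DDX60L, COG6 and HIVEP2, like TBL1XR1, were highest among the EGOT gapmer arrays in replicate 2, the array with the highest median. Among the control gapmer arrays, though, DDX60L was highest in replicate 2, where TBL1XR1 was lowest. COG6 read 6.64, 6.87 and 6.82 with the EGOT gapmer, against 7.91, 7.89 and 7.85 with the control gapmer. FRYL read 6.14, 6.25 and 6.36 with the EGOT gapmer, against 7.24, 7.31 and 7.34 with the control gapmer. HIVEP2 has a second, dimmer probe set, which averaged 4.21 with the EGOT gapmer and 3.99 with the control gapmer and so did not share the drop.

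**Figure D4:**
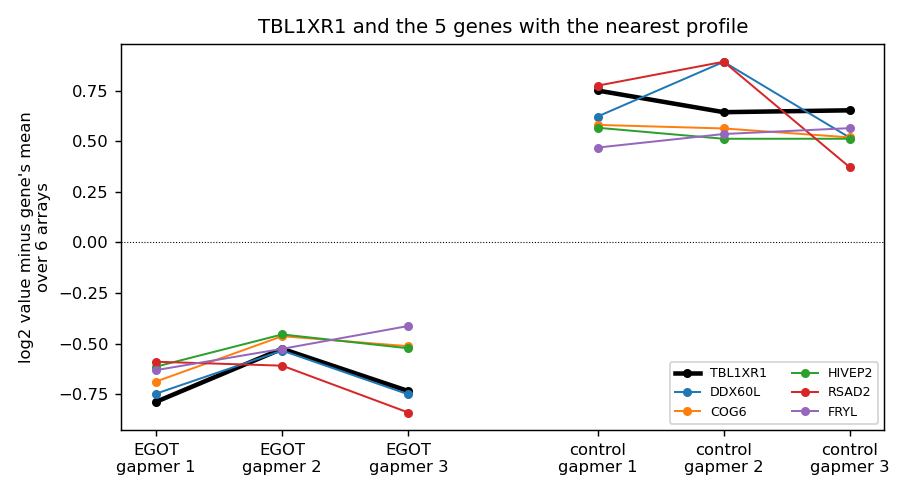
Log2 value minus the gene's own mean over 6 arrays (y axis) for TBL1XR1 (thick line) and the 5 genes with the nearest profile, on each EGOT gapmer and control gapmer array (x axis). The EGOT gapmer values lie between -0.84 and -0.41 and the control gapmer values between 0.37 and 0.89.

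Because 2 of these 5 genes respond to interferon, their promoters were set beside that of TBL1XR1. The core of the interferon-stimulated response element, GAAANNGAAA, was searched on both strands in the RefSeq windows of GRCh38.p14 that run from 250 bases before to 50 after each start. It was in 3.57% of 35116 windows and in at least 1 window of 4.38% of 27305 genes. DDX60L holds 2 copies and the downstream of 2 RSAD2 windows holds 1. Neither window of TBL1XR1 holds a copy, nor do those of COG6, HIVEP2, FRYL, TBL1X, HDAC3 and GPS2, which says only that these letters are not in those windows. The windows below are shown so that the 3 promoters can be compared, each 5′ to 3′ on its gene's strand, with copies of the motif in capitals. They lie at chr3:177197433-177197732, minus strand, for TBL1XR1, at chr4:168480443-168480742, minus strand, for DDX60L and at chr2:6877527-6877826, plus strand, for RSAD2.
TBL1XR1: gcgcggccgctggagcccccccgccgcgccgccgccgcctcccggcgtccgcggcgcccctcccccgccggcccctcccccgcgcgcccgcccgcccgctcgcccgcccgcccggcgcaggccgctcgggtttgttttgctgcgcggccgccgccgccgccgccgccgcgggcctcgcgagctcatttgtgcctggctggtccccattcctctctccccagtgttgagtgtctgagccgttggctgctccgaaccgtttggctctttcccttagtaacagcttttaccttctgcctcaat
DDX60L: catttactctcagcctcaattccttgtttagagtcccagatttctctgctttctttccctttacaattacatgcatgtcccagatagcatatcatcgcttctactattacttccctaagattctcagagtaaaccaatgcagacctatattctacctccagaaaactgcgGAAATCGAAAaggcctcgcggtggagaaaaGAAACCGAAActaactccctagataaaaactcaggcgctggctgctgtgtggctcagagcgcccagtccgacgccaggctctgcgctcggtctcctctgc
RSAD2: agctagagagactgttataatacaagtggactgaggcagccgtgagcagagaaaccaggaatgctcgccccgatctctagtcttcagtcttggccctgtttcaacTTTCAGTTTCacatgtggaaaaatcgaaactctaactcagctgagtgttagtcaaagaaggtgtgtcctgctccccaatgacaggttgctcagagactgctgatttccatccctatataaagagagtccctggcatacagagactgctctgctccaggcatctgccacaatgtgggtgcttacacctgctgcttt
The TBL1XR1 windows are 75% and 65.3% G and C, the DDX60L window is 47.7%, and the RSAD2 windows are 75.3% (not shown) and 48.3% (shown).

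Of the 10 measured genes nearest to TBL1XR1 on chromosome 3, 5 on either side in RefSeq order, 1 rose and 0 fell, against 5.2% and 3.21% of all genes. MRPL47, a mitochondrial ribosomal protein gene and the farthest of the 5 on its side, read 8.92, 9.00 and 8.91 with the EGOT gapmer, against 8.67, 8.50 and 8.66 with the control gapmer (log2 difference 0.33, limma adjusted p = 0.0449). It missed the threshold after quantile or cyclic loess normalization (limma adjusted p = 0.0609 and 0.0647) and in each of the 6 fits that left out 1 array. The nearest named neighbours, MIR4789 and LINC00578, stood at log2 differences of 0.48 and -0.04, short of the threshold (limma adjusted p = 0.307 and 0.872). MIR4789 read 5.01, 5.13 and 5.90 with the EGOT gapmer, against 4.52, 4.92 and 5.17 with the control gapmer, with EGOT gapmer replicate 3 above the other 5 arrays. LINC00578, SPATA16, NLGN1, NAALADL2 and NAALADL2-AS3 read at most 4.11 on every array, near the dim end. ZNF639, MFN1 and ACTL6A, on the side of MRPL47, had differences of 0.30, 0.14 and 0.32, and 0 of them passed.

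Genes that work with the complex were described in 9 lists covering 117 measured genes. Of these, 8 rose and 5 fell, or 11.1%, against 8.41% of all genes. Most were bright, 98 of the 117 lying above the median level of all genes. A test of the brighter genes alone passed 27 of those 98, against 2547 of all 7406. Groups did not overlap in 50 of the 117, against 31.7% of all genes. An unadjusted limma p under 0.05 was found for 35 of the 117, beside 3708 of all 14812 genes. The 117 genes had a median log2 difference of 0.05, against 0.04 for all genes. Leaving out 1 array left 4, 3 and 0 of the 117 past the threshold without EGOT gapmer replicates 1, 2 and 3, and 0 without control gapmer replicate 1, 2 or 3. In those last 4 fits 30, 27, 22 and 24 of the 117 had an unadjusted limma p under 0.05, beside 3354, 3059, 2957 and 2965 of all 14812 genes. Many single calls below therefore rest on having all 6 arrays.

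Proteins found with the complex gave 0 passing genes of 4 measured, 1 of them with an unadjusted limma p under 0.05. All 4 had differences above 0, with a median of 0.13, against 0.04 for all genes. They span 7.59 to 55.4 kb. The span groups of brighter coding genes that cover their lengths had medians of 0.06 to 0.17. SIAH1, a ubiquitin ligase linked to turnover of corepressors, read 8.29, 8.39 and 8.31 with the EGOT gapmer, against 8.19, 8.18 and 8.15 with the control gapmer (log2 difference 0.16, limma adjusted p = 0.194). ZBTB33, or Kaiso, a methyl-DNA binding repressor that recruits NCoR, stood at a difference of 0.25 (limma adjusted p = 0.202).

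Nuclear receptors and other factors that bring the complex to DNA gave 1 call. Of 6 measured receptors of 33 listed, 0 passed and 1 had an unadjusted limma p under 0.05, with a median of -0.02. PPARG, the fat cell receptor, stood at -0.17 on the log2 scale (limma adjusted p = 0.181), while the oestrogen receptor gene ESR1 stood at 0.18 (limma adjusted p = 0.280). Of 10 other recruiting factors 1 fell and 0 rose, with a median of 0.01. Of the 10, 1 had an unadjusted limma p under 0.05, beside 3708 of all 14812 genes. In 3 the groups did not overlap, against 31.7% of all genes. The factor that fell was ETV6, an ETS family repressor, at 6.66, 6.70 and 6.69 with the EGOT gapmer, against 6.95, 7.19 and 7.03 with the control gapmer (log2 difference -0.37, limma adjusted p = 0.0398). ETV6 spans 246 kb, and with the coding span trend removed its difference was -0.18 (limma adjusted p = 0.206).

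Other deacetylases moved in both directions. Of 17 measured, 2 rose and 1 fell, with a median of 0.07. Of the 17, 6 had an unadjusted limma p under 0.05, beside 3708 of all 14812 genes. Groups did not overlap in 6, against 31.7% of all genes. SIRT1, a NAD-dependent deacetylase that can act with NCoR, read 9.26, 9.44 and 9.42 with the EGOT gapmer, against 9.00, 8.79 and 8.89 with the control gapmer (log2 difference 0.48, limma adjusted p = 0.0262). HDAC2, a class I relative of HDAC3 that serves other complexes, rose by 0.32 (limma adjusted p = 0.0345), but the mean of its 2 probe sets gave 0.25 and did not pass (limma adjusted p = 0.147). HDAC9, a class IIa enzyme that spans 916 kb, was the one that fell, by 0.42 (limma adjusted p = 0.0399), and with the coding span trend removed it stood at -0.10 (limma adjusted p = 0.510). HDAC9 was dim, at 5.03, 5.10 and 5.05 with the EGOT gapmer, against 5.36, 5.44 and 5.66 with the control gapmer. Array medians were 5.08 to 5.23, and HDAC9 fell outside the test of brighter genes. HDAC1, named after its value was seen, stood at -0.17, short of the threshold (limma adjusted p = 0.240).

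Complexes that use class I deacetylases other than HDAC3 also held calls of both signs. Of 24 measured subunits of SIN3, CoREST, NuRD and MiDAC, 3 rose and 1 fell, with a median of 0.03. Of the 24, 8 had an unadjusted limma p under 0.05, beside 3708 of all 14812 genes. Groups did not overlap in 9, against 31.7% of all genes. BRMS1, a SIN3 subunit named as a metastasis suppressor, read 9.03, 9.17 and 9.05 with the EGOT gapmer, against 8.65, 8.66 and 8.39 with the control gapmer (log2 difference 0.51, limma adjusted p = 0.0271). CHD3, a NuRD remodelling ATPase, rose by 0.47 (limma adjusted p = 0.0212) and CDK2AP1, a small NuRD subunit, by 0.34 (limma adjusted p = 0.0306). GATAD2A, a NuRD scaffold, fell by 0.45 (limma adjusted p = 0.0284). With the coding span trend removed CHD3 still passed, and BRMS1, CDK2AP1 and GATAD2A did not (limma adjusted p = 0.0626, 0.0756 and 0.0740).

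Coactivators, which take the place of the complex once ligand binds, gave 1 rise and 0 falls among 17 measured, with a median of 0.04. Of the 17, 7 had an unadjusted limma p under 0.05, beside 3708 of all 14812 genes. In 11 the groups did not overlap, against 31.7% of all genes. Quantile and cyclic loess normalization each passed 4, beside 1353 and 1321 of all genes. A variance prior that follows the mean level passed 6, beside 2513. All 17 lay above the median level of all genes, so shares of all genes are an unlike background. A test of the brighter genes alone passed 6 of the 17, beside 2547 of all 7406. In that test 3381 of the 7406 had an unadjusted limma p under 0.05. The 7 coactivators with an unadjusted limma p under 0.05 held both signs, with KAT5 at 0.37 and NCOA1 at -0.28, named after their values were seen. KAT2A, or GCN5, a histone acetyltransferase, read 8.52, 8.48 and 8.54 with the EGOT gapmer, against 8.07, 8.08 and 8.13 with the control gapmer (log2 difference 0.42, limma adjusted p = 0.0173). The large acetyltransferase genes CREBBP and EP300, named after their values were seen, stood at 0.04 and 0.01 (limma adjusted p = 0.845 and 0.941).

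Target genes of the receptors gave 2 rises and 1 fall among 17 measured, with a median of 0.12. Of the 17, 7 had an unadjusted limma p under 0.05, beside 3708 of all 14812 genes. In 11 the groups did not overlap, against 31.7% of all genes. A variance prior that follows the mean level passed 6, beside 2513 of all genes, while quantile and cyclic loess normalization each passed 3. Above the median level of all genes lay 11 of the 17. A test of the brighter genes alone passed 6 of those 11, beside 2547 of all 7406. MYLIP, an LXR target that marks the LDL receptor for breakdown, read 7.35, 7.52 and 7.51 with the EGOT gapmer, against 6.87, 6.81 and 6.95 with the control gapmer (log2 difference 0.59, limma adjusted p = 0.0145). PLIN2, the lipid droplet coat protein and a PPAR target, rose by 0.33 (limma adjusted p = 0.0400). NPAS2, a clock gene repressed by REV-ERB receptors, fell by 0.46 (limma adjusted p = 0.0336). The LXR target SREBF1 and the PPAR target CPT1A, named after their values were seen, stood at 0.26 and 0.23, short of the threshold (limma adjusted p = 0.0971 and 0.134). With the coding span trend removed MYLIP still passed, at 0.60, while PLIN2 (limma adjusted p = 0.0666) and NPAS2 (limma adjusted p = 0.118) did not.

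Targets of beta-catenin, which TBL1X and TBL1XR1 can bind, gave 1 fall and 0 rises among 15 measured, with a median of -0.01. Of the 15, 3 had an unadjusted limma p under 0.05, beside 3708 of all 14812 genes. Groups did not overlap in 5, against 31.7% of all genes. TBX3, a T-box repressor, read 8.30, 8.42 and 8.44 with the EGOT gapmer, against 8.76, 8.92 and 8.77 with the control gapmer (log2 difference -0.43, limma adjusted p = 0.0271). Unlike the other falling genes of these lists TBX3 is short, at 13.9 kb, and its difference with the coding span trend removed was -0.50 (limma adjusted p = 0.0277). Of 7 other genes, from a list of WD40 repeat, Groucho family and ligase genes, 0 passed. Of the 7, 1 had an unadjusted limma p under 0.05, and the median was 0.09. TLE5, of the Groucho family, stood at 0.33 (limma adjusted p = 0.0755) and FBXW11, a ligase subunit, at -0.17 (limma adjusted p = 0.212).

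Over the 9 lists, 11 genes passed with the span trend of all genes removed. The 8 genes that rose span 7.77 to 38.1 kb, and of the 5 that fell 4 span 123 kb or more. With the coding span trend removed 6 of the 13 calls held, those of SIRT1, HDAC2, CHD3, KAT2A, MYLIP and TBX3, and 1 was added, FOXP1, at 0.32 (limma adjusted p = 0.0441).

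**Figure D5:**
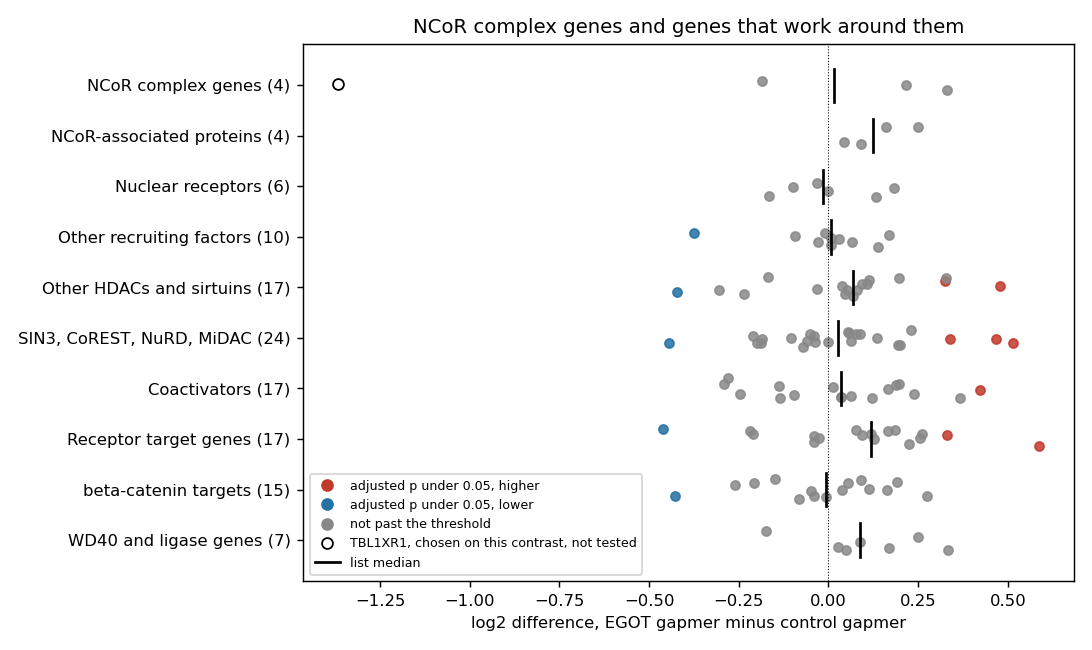
Log2 difference, EGOT gapmer minus control gapmer (x axis), of each measured gene of the NCoR complex and of 9 lists around it (rows, number measured in brackets), coloured where the limma adjusted p is under 0.05, with TBL1XR1 as an open circle because it was chosen on this contrast and a black bar at each list's median. List medians lie between -0.02 and 0.13, and TBL1XR1 at -1.37 stands apart from every other gene shown.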

How the data were processed

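Gene expression was measured on 6 arrays of HuH7 RNA, 3 per group. The deposited values are log2 expression values that the authors computed by RMA, per the submitters' processing notes. This method corrects background, quantile-normalizes arrays and summarises probes. The version used is not given in the sources used here. It hides any change in total RNA per cell. Values ran from 1.05 to 14.1. The precision is limited by 3 arrays per group.

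Of 44629 probe sets, 15835 had 1 gene symbol in GEO's platform annotation, 0 had several and 28794 were unnamed here. The probe set with the highest mean over 6 arrays stood for each gene. Differences are EGOT gapmer minus control gapmer. They were tested in R 4.3.3 by limma 3.58.1 (lmFit, eBayes, two-sided, Benjamini-Hochberg over 14812 genes, threshold 0.05, total degrees of freedom 7.19), a fit also checked on simulated data. Spans, gene order and promoter sequences come from RefSeq, GRCh38.p14, where all 15835 symbols matched. The build the authors used is not given in the sources used here, so RefSeq served for names, order, span and sequence only.

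Members, lists and tests were chosen with earlier results of these data known. The text names the members; EGOT and EIF2AK2; genes of each list that passed, at most 4, or else the 2 with the smallest p; the 5 profiles nearest to TBL1XR1; and the 5 measured neighbours on each side, with exceptions marked. VWF, ALB, AFP and FOXP1 were also named outside that rule. Alternatives were other scalings, probe set summaries, filters, variance priors, a replicate block, span corrections and leaving out each array. Replicate numbers were not used to pair the arrays, save in the replicate block.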

Additional observations from a re-analysis of the deposited data

How the results depend on the processing

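TBL1XR1 kept its direction in all 15 alternatives and moved by more than the replicate SD in 1, to -1.20, when the span trend of protein-coding genes was removed, an alternative chosen after seeing the data. The same setting turned TBL1X to 0.015 and GPS2 to -0.0085. HDAC3, at 0.33, passed among genes above the median level (limma adjusted p = 0.00836) and with a variance trend (0.00814), and missed in the other 13 (up to 0.175). Of all 14812 genes, 1245 passed as deposited, 2547 among the 7406 genes above the median level, 2513 with a variance trend, 804 with the coding span trend removed, and 9 (without control gapmer replicate 2) to 579 (without EGOT gapmer replicate 1) with 1 array left out. Of the 117 list genes 13 passed as deposited, 24 with a variance trend, 7 with the coding span trend removed, and 0 to 4 with 1 array left out. Among genes above the median level only 98 list genes were tested, and 27 of those passed. The replicate block gave 0 of either by limma (smallest adjusted p = 0.0543), with 3438 genes and 30 list genes at an unadjusted p under 0.05. Same-numbered arrays did not deviate together (correlations of -0.034, -0.048 and 0.028). DCN, near background, turned to -0.065 and -0.061 under quantile and cyclic loess normalization and ranged from -0.0057 (without control gapmer replicate 2) to 0.090 with 1 array left out. The causes of these shifts were not tested. Genes near the dim end, such as NAALADL2-AS3, could change without being seen.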

Other observations

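The one NCOR1-derived probe set named here belongs to NCOR1P1, a transcribed pseudogene, chosen after its values were seen. It read 1.98, 1.90 and 1.55 with the EGOT gapmer, against 1.37, 2.16 and 1.90 with the control gapmer, all near the bottom of the scale, with overlapping groups (limma adjusted p = 0.996). It gives no reading of NCOR1.

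EIF2AK2, the gene for the PKR that every well also received by plasmid, read 10.60, 10.76 and 10.70 with the EGOT gapmer, against 11.28, 11.25 and 11.24 with the control gapmer. In both groups its arrays lay far above the median probe set. The EGOT gapmer arrays were lower without overlap, as in 31.7% of all genes in either direction (log2 difference -0.57, limma adjusted p = 0.0119). It missed the threshold without control gapmer replicate 1, 2 or 3 (limma adjusted p = 0.0605, 0.0640 and 0.0616). Whether the probe set also reads RNA made from the plasmid was not tested.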
